A study of Mus musculus with 4 samples.

Results

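Connective tissue mast cells of the mouse hindpaw were examined in 10x droplet single-cell RNA-seq of CD45+ leukocytes. They were chosen by the summed UMIs (unique molecular identifiers, each standing for 1 captured RNA molecule) of 4 granule protease genes: Cpa3, Cma1, Mcpt4 and Tpsb2. A cell was taken as a mast cell when these genes made up at least 1% of its UMIs, at least 2 of them were detected, C1qa, C1qb and C1qc together had under 5 UMIs, and Cd3e had 0. The barcode also had to hold at least 200 detected genes and at most 10% mitochondrial UMIs. Of 27800 cells within the quality limits, out of 30793 deposited, 2025 met these criteria.

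Mast cells are long-lived tissue leukocytes whose secretory granules hold proteases and histamine bound to a heparin proteoglycan. In mice, the connective tissue type of skin carries chymases, tryptases and carboxypeptidase A3, while the mucosal type is known for Mcpt1 and Mcpt2. They depend on stem cell factor through the receptor Kit, and release granules when IgE bound to FcεRI is crosslinked or when basic peptides engage Mrgprb2. Some hours after activation they also secrete newly made cytokines and chemokines.

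Male Lepr db/db (DB) mice, which lack functional leptin receptor signalling and become obese and diabetic, were set against Lepr WT/WT (WT) littermates at 12 and 21 weeks of age. Both groups came from a line on the C57BLKS/J background. Both hindpaws were digested with collagenase, live CD45+ cells were sorted, and cells of 2 to 3 mice were pooled for each of the 4 libraries. With 1 library per condition there is no replicate check and no test between conditions, and differences between pools, sorts or captures cannot be told apart from those of genotype or age.

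The 12-week-WT library held 326 mast cells among 5271 cells, a share of 6.18% (95% Clopper-Pearson interval 5.55 to 6.87). In 12-week-DB, 280 of 6552 cells were mast cells, or 4.27% (3.80 to 4.79). In 21-week-WT the count was 216 of 7270, or 2.97% (2.59 to 3.39), and in 21-week-DB it was 1203 of 8707, or 13.8% (13.1 to 14.6). The 21-week-DB library thus stood above the other 3, and the 21-week-WT library below them. All intervals here and below cover counting error only. Those for gene levels and their ratios take each UMI as independent, so they do not cover the spread between cells. The DB share was 0.691 times the WT share at 12 weeks (95% interval 0.587 to 0.813) and 4.65 times at 21 weeks (4.02 to 5.40). From 12 to 21 weeks it was 0.480 times in WT (0.403 to 0.572) and 3.23 times in DB (2.84 to 3.70). Each share is of sorted cells and moves with all other cell types in the sort.

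A choice that did not use the 4 proteases gave close to the same shares. Taking cells with at least 2 of Mrgprb1, Kit and Ms4a2 detected, in place of the protease limit, gave 6.07%, 4.09%, 2.83% and 13.2%. Here and below, a run of 4 values gives WT and then DB at 12 weeks, followed by WT and then DB at 21 weeks. These included 96.6%, 93.6%, 92.1% and 89.6% of the cells chosen by protease UMIs. In barcodes with at least 1000 UMIs alone, the share ratios were 0.639 at 12 weeks and 4.06 at 21 weeks.

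The label was checked against marker genes. Mrgprb1, a mast cell Mrgpr family receptor that was not part of the criteria, had 3115, 3395, 2302 and 3222 UMIs per 1000000 (CPM) in mast cells and 5.24, 3.75, 1.52 and 11.8 CPM in the other cells. Cells with at least 1 Mrgprb1 UMI made up 90.3%, 90.5%, 83.5% and 92.8% of mast cells. Macrophage-type cells were taken as those with at least 5 C1q UMIs. Shares of cells with a UMI were compared at a matched depth of 1000 UMIs per cell. Cells that met the protease criteria were left out of them (13, 5, 7 and 4), and so were 6, 0, 7 and 2 more. Among the 1772, 1955, 1735 and 1578 that remained, cells with a Mrgprb1 UMI made up 0%, 0%, 0.173% and 0.887%. Since protease-positive cells were left out, low shares of mast cell genes there are in part set by that choice. A count of 0 of 1772 and of 1955 cells allows a share of cells with a UMI of up to 0.169% and 0.153% at 12 weeks, taken as 3 counts of the total. Over all their UMIs, mast cells held 4, 1, 4 and 7 UMIs of the basophil protease gene Mcpt8 and 0, 0, 0 and 2 of the mucosal protease gene Mcpt1. Mcpt2, which is known from mucosal mast cells, was high in these cells together with the connective tissue proteases.

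Mast cells yielded little RNA. Their median depth was 2045, 1553, 1777.5 and 1402 UMIs per cell, against 7759, 7454.5, 8221 and 5991 in the other cells. They held a median of 1096, 864, 924.5 and 757 detected genes. The 21-week-DB mast cells were the shallowest, so each cell was thinned at random to 1000 UMIs before genes were compared. Shallower cells were left out, 48, 60, 34 and 342 of them, which left 278, 220, 182 and 861 cells. Levels below are CPM over these thinned cells. They are counts of 3′ ends, not divided by transcript length, and are compared between libraries and not between genes.

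The start regions of 3 of the genes that chose the cells are shown because GATA2, a transcription factor whose gene was abundant in these cells, binds GATA motifs. The sequences are the 250 bases before the transcription start (RefSeq, GRCm38.p6), 5′ to 3′ on the gene's strand. Capitals mark AGATAA or TGATAA, searched on both strands. Cpa3 (carboxypeptidase A3) lies at chr3:20242182-20242431, minus strand; Mcpt4 (a chymase) at chr14:56062311-56062560, minus strand; and Cma1 (mast cell chymase 1) at chr14:55944676-55944925, minus strand.
Cpa3: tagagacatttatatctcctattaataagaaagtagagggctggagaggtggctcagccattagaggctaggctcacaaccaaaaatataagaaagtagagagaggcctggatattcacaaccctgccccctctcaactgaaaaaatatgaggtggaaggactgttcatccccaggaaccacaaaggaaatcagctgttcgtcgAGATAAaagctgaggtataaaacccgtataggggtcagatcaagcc
Mcpt4: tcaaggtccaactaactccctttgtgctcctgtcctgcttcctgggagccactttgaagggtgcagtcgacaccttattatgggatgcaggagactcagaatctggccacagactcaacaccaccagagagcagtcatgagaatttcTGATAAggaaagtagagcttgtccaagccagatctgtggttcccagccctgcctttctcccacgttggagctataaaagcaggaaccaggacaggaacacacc
Cma1: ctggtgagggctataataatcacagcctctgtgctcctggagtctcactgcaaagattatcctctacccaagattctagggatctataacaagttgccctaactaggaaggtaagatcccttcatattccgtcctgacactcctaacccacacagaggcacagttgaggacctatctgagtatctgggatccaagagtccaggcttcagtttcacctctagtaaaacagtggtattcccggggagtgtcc
The match began 46 bases before the start in Cpa3 and 103 bases before it in Mcpt4, and Cma1 had none in this window. Either motif occurred in 16.6% of 32851 promoter windows of the same length, so such a match is common. Of 18 genes looked up, 12 had an entry, and 6 of these held a motif in any of their windows. Some of these genes had several windows, so that count is per gene and not a like measure to the share of windows.

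The granule proteases made up a smaller part of mast cell RNA in 21-week-DB than in the other libraries. The 4 genes that chose the cells had a median of 5.97%, 5.56%, 4.73% and 2.98% of a cell's UMIs. In 21-week-DB, 95 cells lay just inside the limit, between 1% and 1.5%, against 2, 2 and 7 in the others. Another 47 lay just outside it, between 0.5% and 1%, against 0, 0 and 3, and these 47, which count among the other cells, had Mrgprb1 at 1475 CPM and Kit at 1078 CPM. By depth, the 21-week-DB medians of these 4 genes were 3.11% in cells of 500 to 1000 UMIs, 2.95% in cells of 1000 to 2000 and 2.89% in deeper cells. Each was below the other libraries at that depth. This is a description, since the same genes chose the cells, and proteases outside the choice were not split by depth. Over all 14 granule proteases listed, the sum was 13.5%, 12.4%, 10.9% and 6.76% of UMIs. That sum includes the 4 selecting genes, which held 6.25%, 5.73%, 4.90% and 3.14%. Mcpt2, which did not choose the cells, alone held 5.72%, 5.15%, 4.90% and 2.63%.

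**Figure D1:**
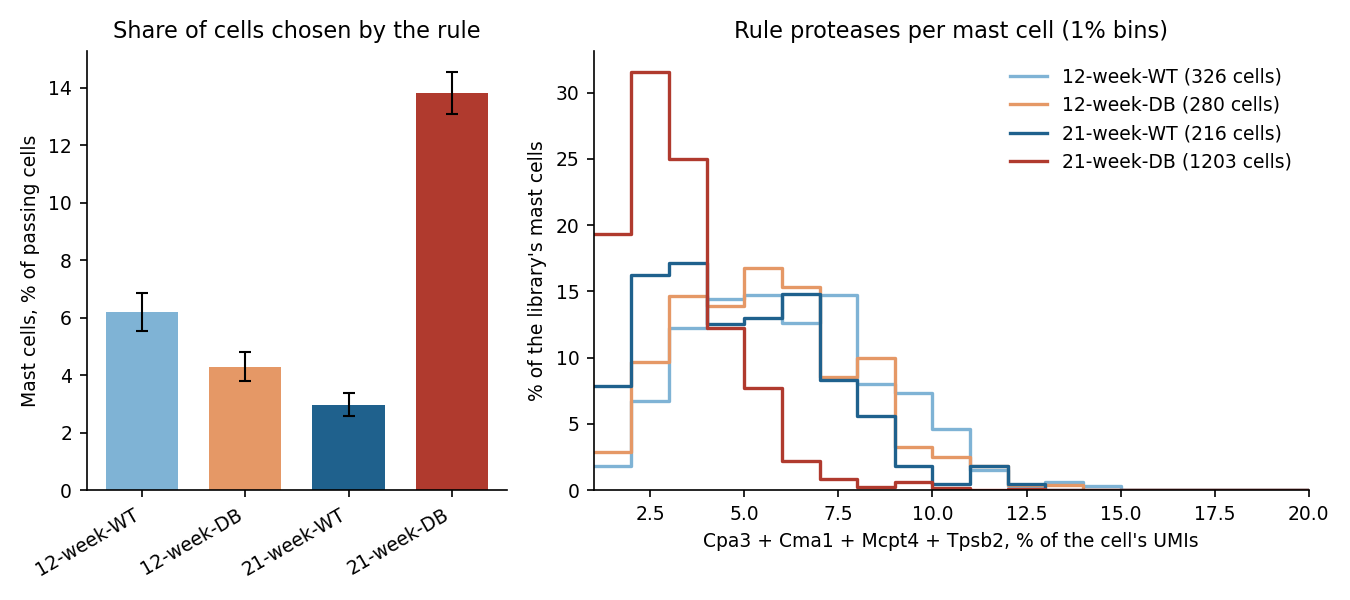
Left, bars give the mast cell share of all cells within the quality limits in each library (percent, error bars 95% Clopper-Pearson intervals), from 2.97% in 21-week-WT to 13.8% in 21-week-DB. Right, lines give the distribution over mast cells of the summed UMIs of Cpa3, Cma1, Mcpt4 and Tpsb2 as a percent of the cell's UMIs, with the 21-week-DB line farthest to the left (median 2.98%).

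Among the chymase-locus genes on chromosome 14, Mcpt2 (chr14:56042041-56044642, plus strand, GRCm38) had 57162, 51482, 49028 and 26262 CPM. The first 3 libraries lay close together and 21-week-DB was well below them, at 0.54 times 21-week-WT (95% interval 0.52 to 0.55). Cma1 had 26583, 24955, 23291 and 15171 CPM, a DB/WT ratio of 0.94 at 12 weeks and 0.65 at 21 weeks. Mcpt4 had 11817, 9677, 8813 and 5314 CPM, with ratios of 0.82 and 0.60. The chymase-locus genes as a sum, which includes the selecting genes Cma1 and Mcpt4, went from 10.8% of UMIs in 12-week-WT to 9.77%, 8.91% and 5.13%. Windows of 50 bases from the last 500 bases of Mcpt2 occurred in no other gene, but 51.2% of those of Mcpt9, 40.7% of those of Cma2 and 12.9% of those of Mcpt4 occurred in another of these 3 genes, so the split of reads among them is uncertain. For Cma1, 12.4% of the windows occurred in the gene model Gm48934, so the split between that pair is uncertain too.

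Cpa3, which trims peptides in the granule, had 13705, 14023, 9181 and 5470 CPM. It was alike at 12 weeks (DB/WT 1.02, 0.98 to 1.07), while in DB its level at 21 weeks was 0.39 times that at 12 weeks (0.37 to 0.41). Ctsg, encoding cathepsin G, had 766, 859, 571 and 315 CPM, and was also lowest in 21-week-DB. Cpa3, Cma1, Mcpt4 and Tpsb2 are given as a description, since the choice of cells rests on them.

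The tryptases moved apart. Tpsb2 had 10399, 8627, 7698 and 5491 CPM, lowest in 21-week-DB like the chymases. Tpsab1, the other main tryptase gene of the chromosome 17 cluster (chr17:25343245-25345562, minus strand), had 2594, 3473, 2462 and 4703 CPM and was highest in 21-week-DB. Its DB/WT ratio was 1.34 at 12 weeks (1.21 to 1.48) and 1.91 at 21 weeks (1.73 to 2.11), and the share of mast cells with a UMI was 75.2%, 85.5%, 80.2% and 92.8%. The ratio of Tpsb2 to Tpsab1 UMIs accordingly was 4.01, 2.48, 3.13 and 1.17, lower in DB than in WT at both ages. No 50-base window was shared between these tryptase genes and another gene. Tpsb2 was used to choose the cells and Tpsab1 was not.

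Gzmb (chr14:56258838-56262260, minus strand), encoding the serine protease granzyme B and known best from cytotoxic lymphocytes, had 54.0, 182, 143 and 439 CPM in mast cells. The DB/WT ratio was 3.37 at 12 weeks (1.82 to 6.57) and 3.07 at 21 weeks (2.06 to 4.77). Cells with a UMI made up 2.88%, 7.27%, 4.95% and 16.0% of mast cells, and 0.0564%, 0.0512%, 0.0576% and 0.444% of the macrophage-type cells. Both DB libraries were above the WT library of the same age, and the other cells had 6.13, 6.57, 12.9 and 19.8 CPM. The highest count in a cell was 3, 10, 7 and 16 Gzmb UMIs. Cells with 0 numbered 270 of 278, 204 of 220, 173 of 182 and 723 of 861. The ratios thus rest on few cells, a spread that their intervals do not cover.

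Called genes were those at least 2-fold higher or lower, after 0.5 UMI was added to both sums, among the 1589 genes whose mean over the 4 libraries was 100 CPM or more. Of these, 321 (20.2%) were at least 2-fold higher in mast cells than in the other cells in all 4 libraries, a contrast that the choice of cells fixed. In DB against WT, 31 genes (1.95%) were 2-fold higher and 15 (0.944%) were 2-fold lower at 12 weeks. At 21 weeks 48 (3.02%) were higher and 48 (3.02%) were lower. From 12 to 21 weeks, 67 (4.22%) were higher and 55 (3.46%) lower in WT, and 87 (5.48%) were higher and 87 (5.48%) lower in DB. The balance depended on the total. With the granule proteases left out of the total and of the genes tested, a setting chosen after seeing the data, 38 were higher and 58 lower in DB against WT at 21 weeks, and 65 higher and 109 lower by age in DB. With ribosomal protein genes left out in the same way, the balance tilted the other way, with 58 higher and 40 lower, and 91 higher and 68 lower. The median log2 ratio over all tested genes was between -0.06 and 0.00 in each comparison with the full total. With the granule proteases left out it was -0.096 in DB against WT at 21 weeks and -0.15 by age in DB. The 2 ages share no library in the DB/WT comparison, while comparisons by genotype and by age share libraries. Of the 9 proteases tested outside the selecting set, Gzmb was 2-fold higher in all 4 comparisons, Mcpt9 was 2-fold lower in 21-week-DB against both 21-week-WT and 12-week-DB (the latter in just 3 of 7 alternatives), and Cma2 and Ctsg were 2-fold lower in 21-week-DB against 12-week-DB. Of the 4 selecting genes only Cpa3 passed 2-fold, in the last of these. In that same comparison Gzmb had a log2 ratio of 0.96 with at most 5% mitochondrial UMIs, under 2-fold.

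**Figure D2:**
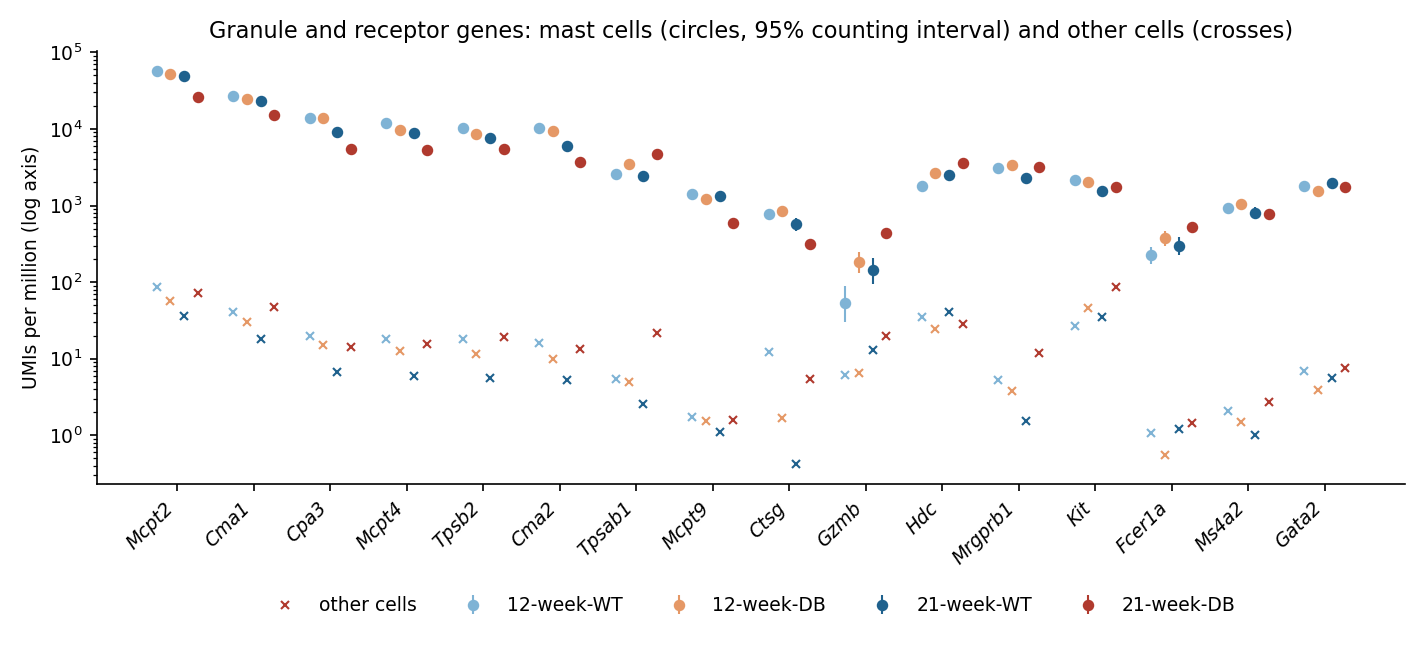
Levels of 16 mast cell genes in the 4 libraries (CPM, log axis), with circles for mast cells thinned to 1000 UMIs each, error bars for 95% Poisson intervals and crosses for all other cells. Mcpt2 went from 57162 in 12-week-WT to 26262 in 21-week-DB, while Tpsab1 went from 2594 to 4703.

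Of 9 tested genes of amine synthesis and the granule matrix, 0 passed 2-fold between genotypes, beside 0.944% to 3.02% of all tested genes in each direction, so nothing is read from that count. Hdc, the histidine decarboxylase that makes histamine, had 1784, 2632, 2484 and 3544 CPM, with DB/WT ratios of 1.48 at 12 weeks (1.31 to 1.67) and 1.43 at 21 weeks (1.29 to 1.58). It was lowest in 12-week-WT and highest in 21-week-DB, and the other 2 libraries lay close together. In the other cells the Hdc ratios were 0.71 and 0.70. Slc18a2, the vesicle transporter that loads amines, had 1299, 1032, 725 and 768 CPM. Srgn, encoding the serglycin core protein that holds proteases in the granule, had 2295, 2236, 2005 and 1530 CPM. Ndst2, which sulfates heparin, had 342, 291, 137 and 196 CPM and was the 1 of 9 tested genes in this list past 2-fold, lower in 21-week-WT than in 12-week-WT (0.40, 0.25 to 0.63; 3.46% of all tested genes were lower), with a log2 ratio of -0.83 at 500 UMIs, under 2-fold. The serotonin enzyme Tph1 had 684, 682, 560 and 729 CPM, with DB/WT ratios of 0.998 and 1.30.

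Kit, the stem cell factor receptor, had 2137, 2005, 1566 and 1744 CPM, with DB/WT ratios of 0.94 (0.83 to 1.06) and 1.11 (0.98 to 1.27). Ms4a2 and Fcer1g, the β and γ chains of FcεRI, had DB/WT ratios between 0.96 and 1.12. Fcer1a, its IgE-binding α chain, had 223, 377, 297 and 532 CPM and was higher in DB at both ages, 1.69 times (1.20 to 2.39) and 1.79 times (1.35 to 2.42). Il1rl1, the IL-33 receptor, had 1669, 1605, 1209 and 1639 CPM, with 21-week-WT lowest.

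The Mrgpr receptors were also lowest in 21-week-WT. Mrgprb2, the receptor for basic secretagogues, had 619, 705, 297 and 466 CPM, and its 21-week-WT level was 0.48 times that of 12-week-WT (0.35 to 0.65). Mrgprx2 had 306, 377, 137 and 325 CPM, a DB/WT ratio of 1.23 at 12 weeks (0.90 to 1.69) and 2.37 at 21 weeks (1.57 to 3.72). The interval at 12 weeks includes 1, and the difference between the ages was not tested.

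The β chains of cytokine receptors were lowest in 12-week-WT and highest in 21-week-DB. Csf2rb, shared by the receptors for IL-3, IL-5 and GM-CSF, had 227, 323, 467 and 772 CPM. Csf2rb2, the β chain specific for IL-3 in mice, had 119, 168, 308 and 657 CPM, a DB/WT ratio of 1.42 at 12 weeks (0.86 to 2.34) and 2.14 at 21 weeks (1.62 to 2.86). Its 21-week level was 2.59 times that at 12 weeks in WT (1.66 to 4.11) and 3.91 times in DB (2.80 to 5.61). In the other cells the Csf2rb2 ratios for genotype were 0.69 and 0.55. Of the 10 tested genes on the receptor list, which does not hold Mrgprx2, Csf2rb2 was 2-fold higher in 3 comparisons and Csf2rb in 2, and Mrgprb2 was 2-fold lower in 1. That Mrgprb2 value stood at the limit, with a log2 ratio of -1.05, and it was no longer past 2-fold with ribosomal protein genes left out of the total. Csf2rb in 21-week-WT against 12-week-WT had a log2 ratio of 0.92 at a protease limit of 2%, also under 2-fold. Outside the list, Mrgprx2 passed 2-fold as well, higher in DB at 21 weeks and lower in 21-week-WT than in 12-week-WT (0.45, 0.28 to 0.71). Of 10 tested genes of signalling below FcεRI, 0 passed 2-fold in any comparison. Each comparison and direction had 0.944% to 5.48% of all tested genes past 2-fold, so nothing is read from 0 of 10. Lat2 had 1115, 718, 687 and 600.5 CPM and Lyn 266, 245, 291 and 244 CPM.

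Of the mast cell transcription factors, Gata2 had 1791, 1550, 1940 and 1727 CPM with no library standing apart. Mitf had 392, 327, 253 and 243 CPM. Another 3 were 2-fold lower in 21-week-DB than in 12-week-DB, of 7 tested, beside 5.48% of all tested genes: Tal1 (0.48, 0.38 to 0.62), Runx1 (0.46, 0.34 to 0.63) and Fli1 (0.46, 0.35 to 0.60). Tal1 had 471, 482, 429 and 233 CPM, with 21-week-DB apart from the rest, although its value passed 2-fold in just 1 of 7 alternatives, with a log2 ratio of -0.78 at 500 UMIs. Runx1 passed in 5 of 7, with -0.79 at 500 UMIs. Hpgds, the prostaglandin D2 synthase of mast cells, was the 1 of 10 eicosanoid genes abundant enough to be tested, at 191, 286, 231 and 260 CPM. Alox5 of the leukotriene pathway had 14.4, 22.7, 5.49 and 3.48 CPM, below the other cells.

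Ccl7 (chr11:82045712-82047525, plus strand) encodes a chemokine that attracts monocytes through CCR2. Its range was the widest among the 11 tested genes on the cytokine and growth factor list, which does not hold Bmp2. Ccl7 had 989, 1777, 3527 and 7473 CPM, higher at 21 weeks in both genotypes and higher in DB at both ages. The DB/WT ratio was 1.80 at 12 weeks (1.54 to 2.10) and 2.12 at 21 weeks (1.95 to 2.30; a log2 ratio of 0.91 at 500 UMIs, under 2-fold), and the 21-week to 12-week ratio was 3.57 in WT (3.09 to 4.12) and 4.20 in DB (3.80 to 4.67). In the other cells the ratios for genotype were 0.46 and 1.22, and those for age 1.04 and 2.78. The share of mast cells with a UMI was 33.1%, 40.0%, 56.0% and 68.2%, against 9.42%, 3.99%, 8.24% and 8.11% of macrophage-type cells. Ccl2, its neighbour on chromosome 11, had 1094, 1145, 1374 and 1552 CPM, and its genotype ratios were 1.05 (0.88 to 1.24) and 1.13 (0.99 to 1.30).

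Ccl7 UMIs were spread unevenly over cells. The 10% of mast cells with the most Ccl7 held 64.4%, 60.9%, 51.9% and 45.9% of its UMIs, and the highest count in a cell was 15, 21, 34 and 80. For comparison, the 10% of cells with the most Cma1 held 18.9%, 19.3%, 20.9% and 22.8% of Cma1 UMIs. Cells with at least 5 Ccl7 UMIs of 1000 made up 7.55%, 13.6%, 26.9% and 44.1% of mast cells.

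Cells with and without a Ccl7 UMI in the same library differed in other genes, and the split is by a measured value, so these are descriptions. Il6 was 2.02, 4.15, 6.67 and 12.7 times as high in cells with Ccl7, where the 12-week-WT interval included 1 (0.92 to 4.44). Csf2rb2 was 2.43, 4.67, 4.71 and 5.04 times as high, and Nr4a2 1.44, 3.55, 4.25 and 4.36 times. The early response gene Egr1 was 1.22, 1.55, 2.19 and 1.47 times as high, with intervals above 1 in all 4 libraries. Fos, of the same gene class, was at 0.98, 1.05, 0.98 and 0.95 times, with intervals that include 1 in each library. Cma1 was lower in cells with Ccl7, at 0.90, 0.83, 0.75 and 0.85 times.

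Il6 (chr5:30013114-30019981, plus strand), a cytokine of acute inflammation, had 108, 223, 104 and 492 CPM, above the other cells at 7.43, 5.68, 16.7 and 20.6 CPM. The DB/WT ratio was 2.06 at 12 weeks (1.28 to 3.37) and 4.72 at 21 weeks (2.98 to 7.91). Its UMIs lay unevenly over cells, with a highest count in a cell of 3, 10, 5 and 24. The intervals do not cover that spread. The WT libraries of both ages were alike, and the DB library was above the WT library at each age. The 12-week ratio stood at the 2-fold limit, with a log2 value of 1.04 that was 0.79 with cells thinned to 500 UMIs. Cells with a UMI were 7.19%, 8.64%, 6.59% and 16.7% of mast cells, and at most 1.65% of macrophage-type cells in any library.

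Il13, a type 2 cytokine, differed by age and little by genotype. It had 122, 118, 434 and 531 CPM, with DB/WT ratios of 0.97 (0.56 to 1.66) and 1.22 (0.96 to 1.57) and age ratios of 3.55 in WT (2.35 to 5.47) and 4.49 in DB (3.03 to 6.95). Both 21-week libraries were above both 12-week libraries, and cells with a UMI went from 10.8% and 10.0% to 25.8% and 28.2%. Il4 had 148, 100, 132 and 193 CPM with no comparison past 2-fold, and Tnf had 464, 382, 396 and 264 CPM. Vegfa, an angiogenic factor, had 180, 136, 396 and 138 CPM, and 21-week-WT was the high library (DB/WT 0.35, 0.26 to 0.47). Of 11 cytokine and growth factor genes tested in the DB/WT comparisons, Il6 was 2-fold higher and Cxcl2 lower at 12 weeks, and Il6 and Ccl7 were higher and Vegfa lower at 21 weeks. Over all tested genes 1.95% were higher and 0.944% lower at 12 weeks, and 3.02% and 3.02% at 21 weeks. The median log2 ratio of the 11 genes was -0.04 and 0.27, beside -0.00 and -0.03 over all genes. By age, Il13 and Ccl7 were 2-fold higher in both genotypes, Vegfa in WT and Il6 and Cxcl2 in DB, while Cxcl2 was lower in WT. Beside these, 4.22% of all tested genes were higher and 3.46% lower by age in WT, and 5.48% and 5.48% in DB. The age values of Vegfa in WT and Cxcl2 in DB were under 2-fold at 500 UMIs and with no thinning.

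**Figure D3:**
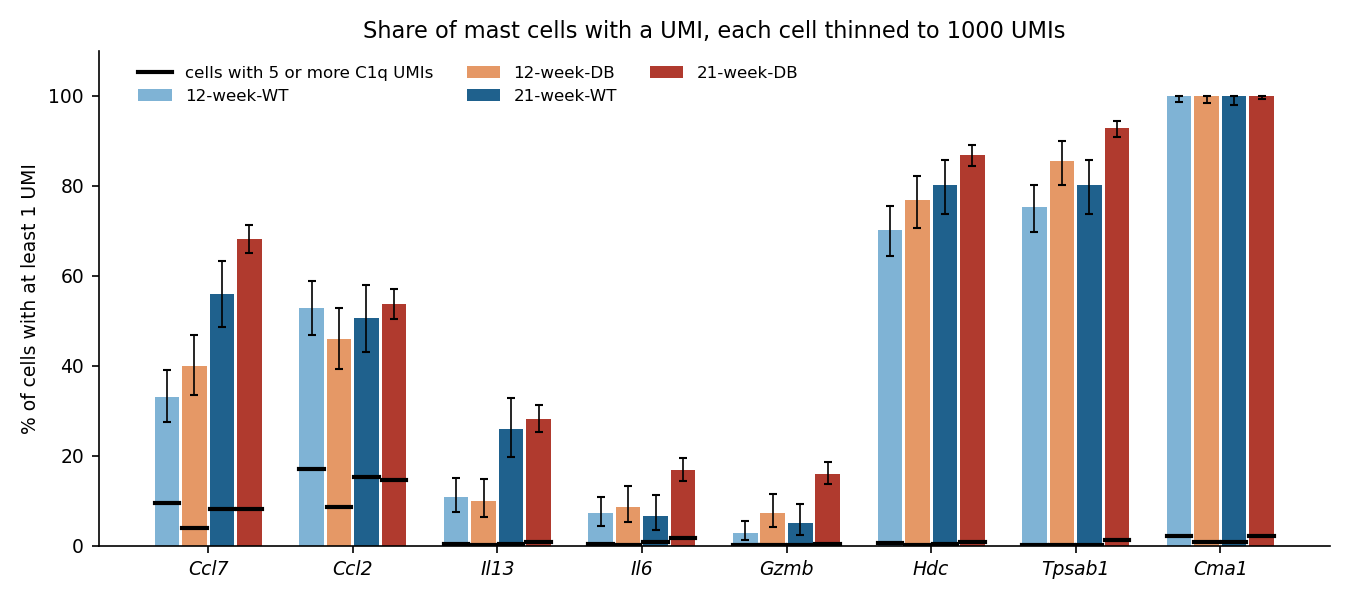
Percent of mast cells with at least 1 UMI of each gene after thinning to 1000 UMIs, 1 bar per library with 95% Clopper-Pearson intervals. Black lines give the percent among macrophage-type cells (at least 5 C1q UMIs, with protease-positive and some other cells left out). Those cells were taken at the same depth, and the Ccl7 bars go from 33.1% to 68.2% against lines of at most 9.42%.

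Of 18 tested early response genes, which are induced within minutes of stimulation, 5 were 2-fold higher at 21 weeks in WT and 5 in DB. Over all tested genes the shares were 4.22% and 5.48%. In WT the other 13 did not pass, and in DB the other 13 did not, with Fosb, Atf3 and Nr4a2 past 2-fold in both genotypes. Of the 5 in WT, Nr4a2 was the 1 past 2-fold in all 7 alternatives. Atf3 had a log2 age ratio of 0.92 in WT with at most 5% mitochondrial UMIs and 0.96 in DB at 500 UMIs, and Fosb had 0.89 in WT with no thinning, all under 2-fold. By value alone, all 18 were above 12-week-WT in 21-week-WT (median log2 0.71, against 0.00 over all genes) and 16 were above 12-week-DB in 21-week-DB (0.60, against -0.06). Nr4a2, an orphan nuclear receptor, had 216, 505, 918 and 1297 CPM, and was 2.34 times as high in DB at 12 weeks (1.69 to 3.26; a log2 ratio of 0.77 at 500 UMIs, under 2-fold) and 1.41 times at 21 weeks (1.20 to 1.67). Fosb had 1468, 927, 2989 and 2448 CPM, higher at 21 weeks and lower in DB at both ages. Egr1 had 3381, 1791, 3604 and 2625 CPM, lowest in 12-week-DB. Tnfaip3, which encodes the NF-κB inhibitor A20, had 568, 891, 2423 and 3678 CPM, with age ratios of 4.26 in WT (3.55 to 5.15) and 4.13 in DB (3.57 to 4.79), against 1.31 and 1.55 in the other cells.

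Of 10 heat shock genes tested, 0 passed 2-fold in any comparison, a count from which, beside the same shares over all genes, nothing is read. Hspa1b, encoding an inducible Hsp70, had 10169, 13127, 10852 and 10318 CPM. Mitochondrial UMIs had a median of 2.36%, 2.49%, 1.55% and 0.903% of a mast cell's UMIs, lower at 21 weeks, and ribosomal protein genes made up 6.08%, 7.82%, 9.36% and 13.2%. In the other cells ribosomal protein genes made up 13.7%, 14.6%, 16.7% and 22.6%, in the same order. The 2 genes listed as signs of RNA quality, led by Malat1, summed to 6978, 10891, 8648 and 12499 CPM in mast cells. Both were higher in DB at each age (median log2 0.54 and 0.45). They were also higher at 21 weeks in WT (0.33) and in DB (0.23), with 0 past 2-fold. The part of these shifts in the gene differences was not tested. Leaving the ribosomal protein genes out of the total kept 124 of 128 called values of named genes past 2-fold.

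Mt2 passed 2-fold in DB against WT at both ages, and Mt1 and Tsc22d3 at 21 weeks. Mt1, a metallothionein that binds zinc and copper, had 755, 895, 593 and 1545 CPM, with DB/WT ratios of 1.19 (0.97 to 1.45) and 2.60 (2.14 to 3.20). Mt2, also a metallothionein, had 137, 300, 181 and 423 CPM. Mt2 was 2.19 times (1.45 to 3.36) and 2.33 times (1.63 to 3.44) as high in DB at 12 and 21 weeks, against 0.97 and 5.07 times in the other cells. Tsc22d3, induced by glucocorticoids, had 396, 636, 456 and 999 CPM, with ratios of 1.61 and 2.19. Of 4 genes tested in this list, 1 was 2-fold higher at 12 weeks and 3 at 21 weeks in DB (median log2 0.46 and 1.16, beside -0.00 and -0.03 over all genes). Those shares stand beside 1.95% and 3.02% of all tested genes. At 12 weeks Mt2 passed in 4 of 7 alternatives, and at 21 weeks Mt2 passed in 6 and Tsc22d3 in 5, both under 2-fold at a protease limit of 2%, where Mt1 alone of the 3 passed. Sgk1, another glucocorticoid target, had 245, 232, 82.4 and 115 CPM and was 2-fold lower at 21 weeks in both genotypes, although in DB the value passed 2-fold in just 1 of 7 alternatives, and in WT in 5 of 7, with a log2 ratio of -0.60 at 500 UMIs.

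Between the DB/WT comparisons at the 2 ages, 11 genes were 2-fold higher in both, 35.5% of the 31 at 12 weeks and 22.9% of the 48 at 21 weeks. Over all tested genes, 3.02% were higher at 21 weeks and 1.95% at 12 weeks. Genes higher at both ages were Gzmb, Il6, Mt2, Ctla2a, Bmp2, Arl5b, Sytl3, Dpm3, Hist1h1c, Snhg8 and the gene model Gm20186. Gzmb was the 1 of the 10 named genes among them that stayed past 2-fold at both ages under all 7 alternatives tried. Its UMIs lay in few cells, as given above, and the alternatives draw on the same libraries. At 12 weeks with no thinning, the log2 ratio was 0.81 for Bmp2, 0.92 for Arl5b, 0.76 for Dpm3, 0.87 for Hist1h1c, 0.87 for Snhg8 and 0.84 for Mt2, all under 2-fold. At 21 weeks Bmp2, Sytl3 and Hist1h1c each passed 2-fold in 3 of 7 alternatives. Their lowest 21-week log2 ratios were 0.27, 0.23 and 0.29. Ctla2a, an inhibitor of cysteine cathepsins, had 338, 859, 451 and 1784 CPM in mast cells. Its ratios of 2.54 (1.97 to 3.29) and 3.96 (3.17 to 5.01) were close to those of the other cells, 2.22 and 4.45. Without the cells of at most 2 Mcpt2 UMIs described below, its 12-week log2 ratio was 0.96, under 2-fold. Arl5b, a small GTPase gene, had 112, 227, 170 and 441 CPM, and its ratios in the other cells were 1.27 and 1.36. Bmp2, encoding a bone morphogenetic protein, had 3.60, 31.8, 121 and 258 CPM, where 3.60 CPM is 1 UMI and the 12-week ratio has an interval from 1.14 to 399. Sytl3, a synaptotagmin-like gene, had 46.8, 145, 170 and 354 CPM, and its 12-week log2 ratio of 1.61 became -0.0088 when cells were thinned to 500 UMIs. Tspan2, a tetraspanin, and the B cell gene Ighm were the 2 lower in both ages. They were 13.3% of the 15 lower at 12 weeks and 4.17% of the 48 lower at 21 weeks. Over all tested genes, 3.02% were lower at 21 weeks and 0.944% at 12 weeks.

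At 21 weeks, 5 genes with levels at least those of the other cells were higher by most in DB: Il6, Ctla2a, Ercc6l2, Gzmb and Rffl. Ercc6l2, a DNA repair helicase gene, had 71.9, 118, 110 and 346 CPM, with 21-week-DB alone high, and a ratio of 3.15 (2.00 to 5.23). Rffl, a ubiquitin ligase gene, had 86.3, 109, 115 and 325 CPM, a ratio of 2.82 (1.81 to 4.63) against 1.01 in the other cells. The 5 that were lower by most were Rab37, Tspan2, Lpcat2, Vegfa and Ncam1. Ncam1 had a log2 ratio of -0.92 with at most 5% mitochondrial UMIs, under 2-fold. Rab37, a small GTPase of secretory granules, had 201, 118, 165 and 38.3 CPM, a ratio of 0.23 (0.14 to 0.39). Lpcat2, which makes platelet-activating factor, had 155, 105, 110 and 36.0 CPM, a ratio of 0.33 (0.18 to 0.61). Tspan2 had 227, 100, 154 and 45.3 CPM, with ratios of 0.44 at 12 weeks and 0.29 at 21 weeks; the 12-week log2 ratio was -0.74 with no thinning. At 12 weeks the same rule gave Gzmb, Ctla2a, Nr4a2 and Il6 as higher and 0 genes as lower.

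**Figure D4:**
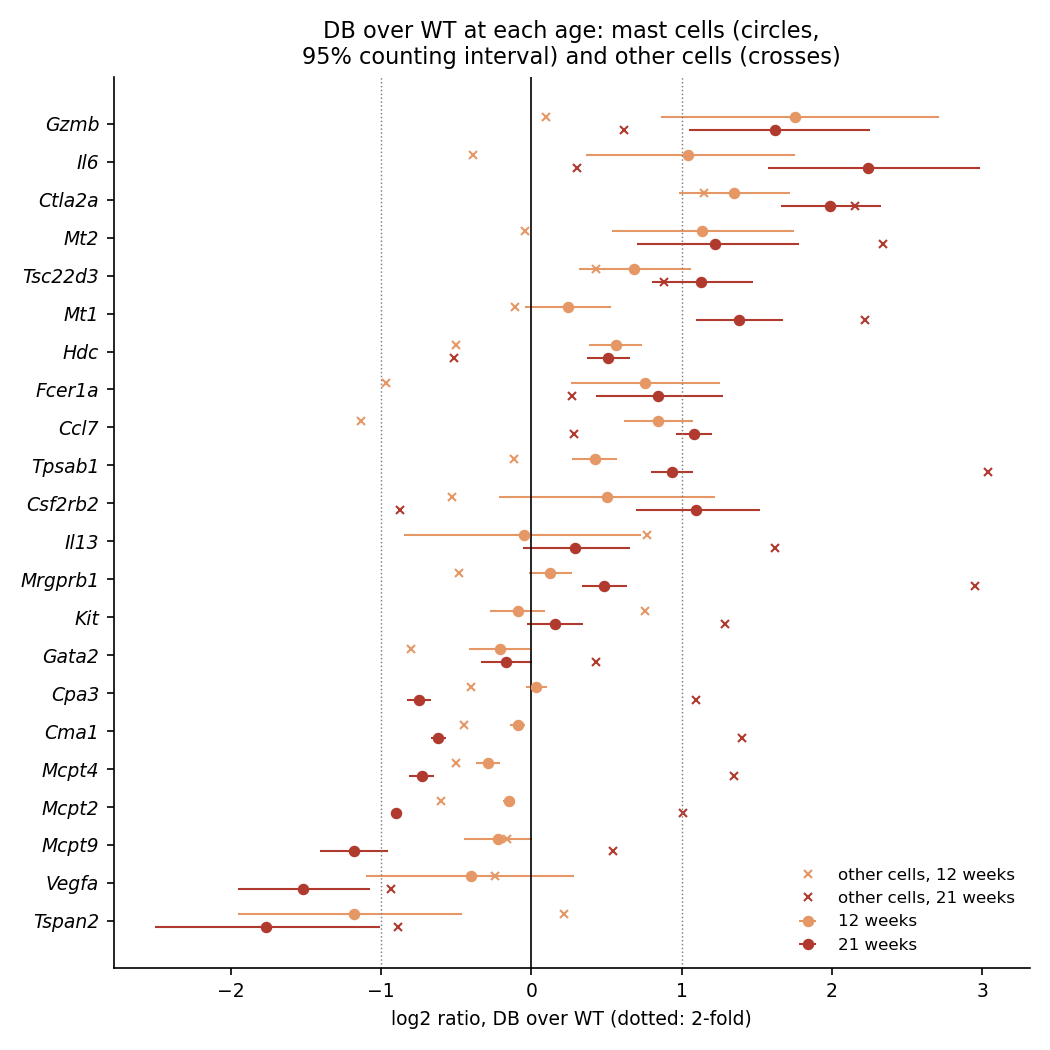
Log2 ratios of DB to WT at 12 and 21 weeks for 22 genes, with circles and 95% intervals for mast cells and crosses for the other cells; 0 means equal levels. Il6 and Gzmb lie right of 0 at both ages in mast cells, and the chymases lie left of 0 at 21 weeks.

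By age, among genes at least as high as in the other cells in both libraries and 2-fold changed with and without thinning, those higher by most in WT were Tnfaip3, Nr4a2, Ccl7, Il13 and Flrt3, and in DB they were Ccrl2, Il13, Ccl7, Tnfaip3 and Csf2rb2. Ccrl2, a chemerin-binding receptor, had 93.5, 100, 225 and 453 CPM, with an age ratio in DB of 4.53 (2.95 to 7.31). Flrt3, an adhesion protein gene, had 93.5, 81.8, 302 and 323 CPM. Both genes were higher at 21 weeks in either genotype. In WT each passed 2-fold in 5 of 7 alternatives. With at most 5% mitochondrial UMIs the WT log2 ratios were 0.64 for Ccrl2 and 0.95 for Flrt3. Under the same limits, those lower by most in WT were Hexim1, Prrc1, Gpr141b, Acly and Ppp1r10, with ratios from 0.33 to 0.36, and in DB they were Shisa2, Pgrmc1, Myadm, Rab37 and Nrm, with ratios from 0.27 to 0.33. Pgrmc1, a heme-binding membrane protein gene, had 374, 441, 330 and 138 CPM, with 21-week-DB alone low. Acly, which makes cytosolic acetyl-CoA, had 237, 232, 82.4 and 166 CPM, with 21-week-WT low. Its age value in WT passed 2-fold in 4 of 7 alternatives, with a log2 ratio of -0.65 at a protease limit of 2%. That of Ppp1r10 passed in 5 of 7, with -0.86 at 500 UMIs.

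Genes of other cell types differed in how far they were seen in mast cells. The 6 macrophage markers listed summed to 1468, 1395, 962 and 977 CPM, with Apoe the most abundant. The 4 antigen presentation genes summed to 1608, 1064, 2423 and 262 CPM, which was 8.80%, 8.36%, 10.8% and 4.83% of their level in the other cells. All 4 were 2-fold lower in 21-week-DB against 21-week-WT (median log2 -3.29), beside 3.02% of all tested genes, and against 12-week-DB (median log2 -2.05), beside 5.48%. Cd74, the MHC class II invariant chain, had 644, 441, 879 and 113 CPM in mast cells and 8226, 5810, 10322 and 2561 CPM in the others, low in 21-week-DB in both. Of the innate lymphoid genes, Il7r had 39.6, 72.7, 82.4 and 398 CPM in mast cells and 149, 181, 176 and 502 CPM in the others. From the same list, Gata3 had 68.3, 50, 44.0 and 43.0 CPM and Hlf had 14.4, 4.55, 16.5 and 19.7 CPM, so those genes did not follow Il7r. Ctla2a was the most abundant gene of that list, which summed to 486, 1027, 654 and 2281 CPM, or 63.8%, 79.5%, 62.7% and 81.7% of its level in the other cells. T cell markers summed to 36.0, 31.8, 60.4 and 54.6 CPM, neutrophil markers to 93.5, 9.09, 11 and 20.9 CPM, B cell markers to 89.9, 9.09, 27.5 and 16.3 CPM and fibroblast markers to 32.4, 0, 11 and 19.7 CPM. Endothelial markers had 2, 9, 5 and 11 UMIs, which was 40.2%, 255%, 217% and 88.3% of their level in the other cells, with Cdh5 at 0 throughout. The 12-week-WT library was the highest in neutrophil, B cell and fibroblast markers. Cd200r3, listed as a basophil marker, had 468, 282, 264 and 163 CPM, against 1.72 to 3.40 CPM in the other cells. The proliferation gene Mki67 had 0, 4.55, 0 and 0 CPM, where 4.55 CPM is 1 UMI. The part of free RNA or of mixed droplets in these values was not tested. The same holds for Ctla2a and Cxcl2, which the other cells also carried, Cxcl2 at 484, 519, 910 and 1767 CPM.

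In the 2 DB libraries some cells chosen by the proteases had almost no Mcpt2, which was noticed after values were seen. Cells with at most 2 Mcpt2 UMIs of 1000 numbered 1 of 278, 10 of 220, 0 of 182 and 41 of 861, or 0.360% (0.00911 to 1.99), 4.55% (2.20 to 8.20), 0% (a count of 0 allows up to 1.65%, as 3 counts of the total) and 4.76% (3.44 to 6.40). The median over all cells was 52, 42, 45 and 20 UMIs. Cells with 0 Mcpt2 numbered 0, 8, 0 and 18.

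In 12-week-DB and 21-week-DB respectively, these cells had Kit at 0.89 times (0.52 to 1.43) and 0.99 times (0.77 to 1.26) the level in the rest. Cma1 was at 0.84 and 0.78 times, but as a gene that chose the cells it had to be present where the other selecting genes were low. Tpsb2 was at 0.089 and 0.45 times, Cpa3 at 0.38 and 0.64 times, Gata2 at 0.38 and 0.55 times and Hdc at 0.22 and 0.68 times. Ctsg was higher, at 2.08 times (1.18 to 3.42) and 2.12 times (1.36 to 3.19). Ccl7 was lower, at 0.22 and 0.34 times. Gzmb had 0 UMIs in the low cells of both libraries, with an upper 95% limit on the ratio of 2.03 in 12-week-DB and 0.20 in 21-week-DB. S100a6, encoding a calcium-binding protein, was at 30300 against 4781 CPM in 12-week-DB (6.34 times, 5.56 to 7.21) and at 17683 against 4155 CPM in 21-week-DB (4.26 times, 3.92 to 4.61). All 8 cells with 0 Mcpt2 in 12-week-DB, and 15 of the 18 in 21-week-DB, had at least 10 S100a6 UMIs of 1000. Of all cells with at most 2 Mcpt2 UMIs, 9 of 10 in 12-week-DB and 24 of 41 in 21-week-DB did. S100a4 and the LIM protein gene Crip1 were higher too, 6.85 and 4.69 times in 12-week-DB and 3.01 and 3.05 times in 21-week-DB. The median depth was 1780.5 against 1870.5 UMIs in 12-week-DB and 1798 against 1711 in 21-week-DB. Macrophage markers summed to 900 and 805 CPM in the low cells against 1419 and 985 CPM in the rest, with Mrc1, Csf1r and Adgre1 at 0, and neutrophil, fibroblast, keratinocyte, endothelial and red cell markers were at 0. T cell markers summed to 200 against 23.8 CPM and 73.2 against 53.7 CPM, where the low cells held 2 and 3 UMIs. Antigen presentation genes summed to 400 against 1095 CPM and 195 against 266 CPM, and B cell markers to 0 and 1 UMIs in the low cells. Ctla2a was at 6.56 and 1.38 times, and the innate lymphoid list that it leads summed to 4600 against 857 CPM and 2854 against 2252 CPM. Of that list, Gata3, Il7r and Hlf were at 0 in the low cells of 12-week-DB, and Rora and Hlf in those of 21-week-DB.

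Over all mast cells S100a6 had 1284, 5941, 2758 and 4799 CPM, a DB/WT ratio of 4.63 at 12 weeks (4.11 to 5.22) and 1.74 at 21 weeks (1.59 to 1.91). Without the low cells it had 1289, 4781, 2758 and 4155 CPM, so both DB libraries stayed above the WT library of their age. The median cell had 0, 1, 1 and 2 S100a6 UMIs of 1000, and cells with at least 10 made up 2.88%, 16.8%, 5.49% and 12.9%. The other cells had 5302, 8868, 5242 and 6951 CPM.

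**Figure D5:**
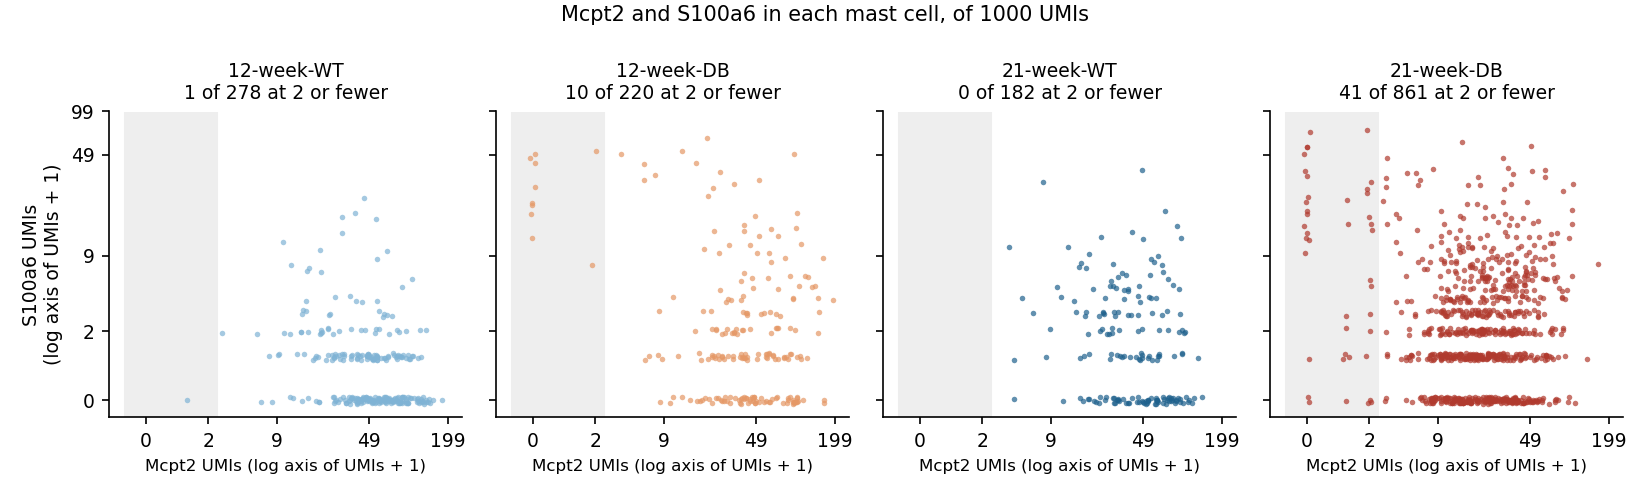
Each point is 1 mast cell thinned to 1000 UMIs, with its Mcpt2 UMIs on the x axis and its S100a6 UMIs on the y axis, 1 panel per library; grey shading marks at most 2 Mcpt2 UMIs. The shaded cells number 10 of 220 in 12-week-DB and 41 of 861 in 21-week-DB, and 1 of 278 and 0 of 182 in the WT libraries.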

How the data were processed

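Per the labels, cells were captured with the 10x single cell 3′ v3 kit and aligned by the authors to mm10. The labels name Cell Ranger 5.0.0; the file headers give 5.0.0 for both 12-week and 6.0.0 for both 21-week libraries, so software and age cannot be told apart. The deposited values are whole-number UMI counts per gene and barcode, before the ambient RNA and doublet removal the study describes. Libraries held 47851794, 57025899, 69626521 and 54989592 UMIs (WT then DB at 12 weeks, WT then DB at 21 weeks).

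Ages in weeks come from the study's methods (the labels say young or aged). The C1q and Cd3e limits were the only step against doublets for the values given. Scrublet was run as an alternative alone, since it marked just 0, 1, 0 and 2 barcodes. Mast cell barcodes found in another library numbered 0, 4, 1 and 9. Sums over thinned cells gave CPM with exact Poisson, Clopper-Pearson or conditional ratio intervals (python 3.11.15, numpy 2.4.6, pandas 2.3.3, scipy 1.17.1, scanpy 1.11.5, matplotlib 3.10.9), and scripts were tested on simulated data. Named were 195 listed genes (1, Mrgprb13, had no row of its own), the 15 highest over other cells, and per comparison the 5 highest and 5 lowest with at least 100 CPM, a level at least that of the other cells in both libraries and a 2-fold ratio with and without thinning; S100a6, S100a4, Crip1, Sytl3, Arl5b, Bmp2, Dpm3, Hist1h1c, Snhg8, Slc31a2 and Rab27b were added after their values were seen. The members and lists were chosen with earlier results of these data known. The alternatives were other depths, filters, limits, totals and a doublet score.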

Additional observations from a re-analysis of the deposited data

Results flagged for a closer look

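Relative to WT, the share of mast cells in DB was 0.691 times at 12 weeks and 4.65 times at 21 weeks, in opposite directions. Slc31a2, a copper transporter family gene, also had opposite directions, with a log2 DB/WT ratio of -1.06 at 12 weeks and 1.34 at 21 weeks, and it was the 1 gene past 2-fold in both with opposite signs. It had 184, 86.4, 60.4 and 159 CPM (WT then DB at 12 weeks, WT then DB at 21 weeks). At 500 UMIs per cell its log2 ratios were -0.24 and 0.92, both under 2-fold, and over 7 alternatives the 12-week value passed 2-fold in 2 and the 21-week value in 5. Neither difference between ages was tested, since each condition is 1 library.

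Barcodes outside the quality limits were not used above, and some of them met the protease, C1q and Cd3e criteria. They made up 4.68%, 1.54%, 1.49% and 1.20% of the barcodes outside the limits in the 4 libraries in that order, which is 34 of 727, 14 of 911, 14 of 938 and 5 of 417.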

How the results depend on the processing

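Of 36 values of the share ratios under alternatives, 34 moved by less than their interval. In DB from 12 to 21 weeks the ratio was 2.68 with protease UMIs of at least 2% and 2.77 with C1q-positive cells left out of the total. Of 96 counts of 2-fold genes, 26 moved by over 1.5 times. Thinning to 500 UMIs gave 37 lower genes at 12 weeks. With no thinning, 13 were higher and 3 lower at 12 weeks, 31 lower at 21 weeks in DB against WT, and 44 higher in WT by age. At 200 CPM or more the counts were 11 higher and 4 lower at 12 weeks, 18 and 18 at 21 weeks, 40 and 14 in WT by age, and 42 lower in DB by age. With no limit beyond 1 UMI in each, they were 904 and 815, 552 and 1830, 851 and 907, and 526 and 2268. Among genes at least as high as in the other cells they were 9 and 5, 34 and 23, 31 and 38, and 48 and 54. Of 3948 values of named genes, 290 moved beyond their interval and 2 of those past 2-fold reversed, both at 500 UMIs: the log2 ratio of Sytl3 at 12 weeks was -0.0088, and that of Il7r in WT by age was -0.85. In 12-week-DB against WT, Ctla2a had a log2 ratio of 0.96 without cells with at most 2 Mcpt2 UMIs, a setting chosen after seeing the data, as were totals without ribosomal or granule genes, the other marker choice, the 1000-UMI share and the removal of shared barcodes. Of 128 called values of named genes, 96 stayed past 2-fold at 500 UMIs, 101 without thinning, 106 at 2% protease, 103 at 5% mitochondrial UMIs and 128 without the 4 proteases in the total. Scrublet's own limit marked 0, 1, 0 and 2 barcodes, so the highest scores were removed instead, among them 9, 5, 6 and 16 mast cells. No paired analysis was possible because each condition is 1 library with no replicate number, and for the same reason no replicate could be left out.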

Other observations

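Beyond the proteases, the genes that stood highest over the other cells in all 4 libraries included Ednra, an endothelin receptor, at 223, 273, 165 and 109 CPM in mast cells (WT then DB at 12 weeks, WT then DB at 21 weeks). It was at most 0.920 CPM in the other cells, and its 21-week-DB level was 0.40 times that of 12-week-DB (95% interval 0.29 to 0.56). Atp8b5, a phospholipid flippase gene, had 583, 336, 264 and 267 CPM, highest in 12-week-WT. Fam110c had 115, 132, 181 and 295 CPM, highest in 21-week-DB. Rab27b, a GTPase of granule exocytosis, had 655, 718, 747 and 847 CPM, with DB/WT ratios of 1.10 (0.88 to 1.37) and 1.13 (0.94 to 1.37). Ednra, Atp8b5 and Fam110c were ranked on the contrast that chose the cells, so their excess over other cells is a description, and Rab27b was added after its values were seen.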
